A study of Mus musculus with 3647 samples.

Results

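GABAergic neurons lacking Pvalb and Six3 are described here from single nuclei of mouse tissue labelled as thalamic reticular nucleus (TRN), the thin sheet of inhibitory neurons around the thalamus. The members were chosen by measured values: Snap25, Gad1 and Gad2 above 0, Gad1 and Gad2 together at 100 TPM (transcripts scaled to the same total in each nucleus) or more and above Slc17a6, and both Pvalb and Six3 at 0. The rule found 91 nuclei, 11.2% of the TRN nuclei that met its GABAergic conditions, out of 1447 TRN nuclei with values and 3647 samples in the series. They were set against the 610 TRN GABAergic nuclei in which both Pvalb and Six3 were found, which passed the same conditions. Another 61 nuclei had Pvalb only and 50 had Six3 only.

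The study collected single nuclei in 96-well plates for Smart-seq2, a full-length RNA protocol, so each nucleus was its own library and no cell barcodes were shared. The TRN groups were 8 plates of nuclei sorted on a DNA dye and on NeuN, a protein of neuronal nuclei, and 13 plate names sorted on the dye alone (the series' design counts 9 plates). A further 4 plates held nuclei of adjacent tissue (thalamus and globus pallidus, per the series' design), and 95 Patch-seq samples came from TRN. Strain, genotype, age, sex and animal are not given in the labels used here, so the nuclei of a kind formed 1 sample, no test could be made and no p-value is given. Every difference below is a description of these nuclei, with its spread over plates.

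TRN neurons send GABA to thalamic relay cells, and most carry the calcium-binding protein parvalbumin (Pvalb) and the homeodomain factor Six3, which takes part in forming the nucleus. Thalamic inhibitory neurons of another origin come from the midbrain in the mouse and carry Sox14, Gata2, Gata3, Tal1 or Otx2 during their development. Striatal projection neurons, which lie across the internal capsule from TRN, also use GABA and mark themselves with Ppp1r1b, Penk and Adora2a.

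Members made up 11.2% of TRN GABAergic nuclei (91 nuclei, exact Clopper-Pearson 95% interval 9.12% to 13.6%, which covers counting error only). On NeuN-selected plates they were 74 nuclei (12.8%, interval 10.2% to 15.8%), with 5 to 13 on each of the 8 plates and a share per plate between 7.81% and 16.5%. On unselected plates they were 17 nuclei (7.30%, interval 4.31% to 11.4%), with 0 to 4 per plate. The nuclei with values are those for which the table has a column, so the shares describe those nuclei. Depth per nucleus is unknown because TPM keeps no read counts, and detected genes stand in for it. Members on NeuN-selected plates carried 4940 detected genes in the median nucleus, and nuclei with both genes carried 5134. On unselected plates the medians were 3003 in members and 4384 in nuclei with both genes, and the part of this gap in their share was not tested.

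The values that chose the members were as follows, and nothing is read from them. Gad1, which makes most GABA, had a median of 994.2 TPM in members and 2563 TPM in nuclei with both genes, and Gad2 had medians of 463.9 and 590.3 TPM in the same order. Snap25, a release protein of all neurons, had medians of 2775 TPM in members and 2402 TPM in nuclei with both genes. Slc17a6, the vesicular glutamate transporter, was found in 6 of 91 members and in 15 of 610 nuclei with both genes. The members nearest the 100 TPM limit held 169.4, 230.6 and 317.04 TPM of Gad1 and Gad2 together. Of the 5 nuclei that failed on this limit alone, the nearest held 55.3, 24.9 and 24.6 TPM, and the lowest nucleus with both genes held 161.8 TPM.

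Differences below are those of the mean log2(TPM + 1) within a plate, members minus nuclei with both genes, averaged over plates with at least 5 nuclei of each kind. Only the 8 NeuN-selected plates qualified, with 74 members and 75.3% of the GABAergic nuclei on them carrying both genes. A share of nuclei in which a gene was found is the mean of its plate shares unless a count is given. Because zeros enter these means, a difference joins how often a gene was found with how high it was, and it is no fold change. The plates carry NP names (4 plates) and TRNp names (4 plates). Of 9567 genes found in at least 20% of nuclei of either kind, 300 were higher in members by at least 1 and above 0 on every plate (3.14% of those tested), and 6.26% were lower by at least 1 and below 0 on every plate. "Higher" and "lower" below mean these calls. Counts of calls in the gene lists below are to be read beside these 2 shares. A single call in a list describes that gene and not its family. The 6 genes of the rule were left out of the counts. Of the 300 higher genes, 31 were found in 5% or fewer of nuclei with both genes, where few members suffice to put a plate above 0. Over all tested genes the median difference was -0.13. With each member matched to a nucleus of like detected genes, 3.17% were lower, and 41.7% of the lower genes were called again. With 10 TPM as the pseudocount, 1.63% were higher and 2.92% lower.

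Zcchc12, which encodes a zinc finger protein that acts as a coactivator in BMP signalling, had the largest difference upward, and it was named as a marker of these nuclei with earlier results in view. It was found in 91.6% of members and in 20.1% of nuclei with both genes. Its plate means ran from 4.84 over a median of 8.46 to 9.47 in members, against 1.24 over 1.63 to 1.97 in nuclei with both genes, so the plate means of the groups did not overlap. The difference was 6.34 ± 1.52 (SD, n = 8 plates), and mean levels were 719.1 TPM in members and 106.1 TPM in nuclei with both genes. Syt5, a synaptotagmin of secretory vesicles, was found in 61.9% of members and in 14.8% of nuclei with both genes, with a difference of 4.03 ± 1.47. Tmem130, a transmembrane protein gene, was common in both kinds (98.2% of members, 82.99% of nuclei with both genes) and differed in level, with means of 1454 TPM in members and 303.2 TPM in nuclei with both genes. Like Zcchc12, Syt5 and Tmem130 belong to the label, which was set with earlier results of these data known. Their differences on NeuN-selected plates are therefore a description and no support for the label.

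The gene lowest in members was Ramp3, whose product modifies the calcitonin receptor-like receptor. It was found in 8.33% of members and in 87.2% of nuclei with both genes, and its plate means ran from 0.00 over 0.00 to 2.70 in members, against 7.66 over 8.30 to 9.00 in nuclei with both genes. The difference was -7.52 ± 1.37. Below are the 250 bases before the annotated start of Zcchc12 and of Ramp3, shown because these genes mark the ends of the contrast. They come from the RefSeq promoter table (GRCm38.p6, both on the plus strand), Zcchc12 at chrX:36195654-36195903 and Ramp3 at chr11:6658283-6658532. Capitals mark E-boxes, searched as CANNTG on both strands, the letters to which basic helix-loop-helix factors such as Tal1 bind.
Zcchc12: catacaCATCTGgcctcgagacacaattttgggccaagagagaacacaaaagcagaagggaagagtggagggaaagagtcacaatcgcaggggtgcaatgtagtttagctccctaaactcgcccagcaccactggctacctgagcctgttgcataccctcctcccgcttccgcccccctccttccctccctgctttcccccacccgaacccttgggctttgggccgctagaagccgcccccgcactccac
Ramp3: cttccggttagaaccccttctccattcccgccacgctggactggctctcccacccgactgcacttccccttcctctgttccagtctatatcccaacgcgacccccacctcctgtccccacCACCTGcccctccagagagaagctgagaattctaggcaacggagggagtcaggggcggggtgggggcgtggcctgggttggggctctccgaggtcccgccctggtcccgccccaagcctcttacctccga
Each window held 1 E-box and 9 (Zcchc12) or 13 (Ramp3) CpG dinucleotides. An E-box stood in 66.2% of the 32851 promoter windows in the table, so these matches are common and are given as a description only.

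**Figure D1:**
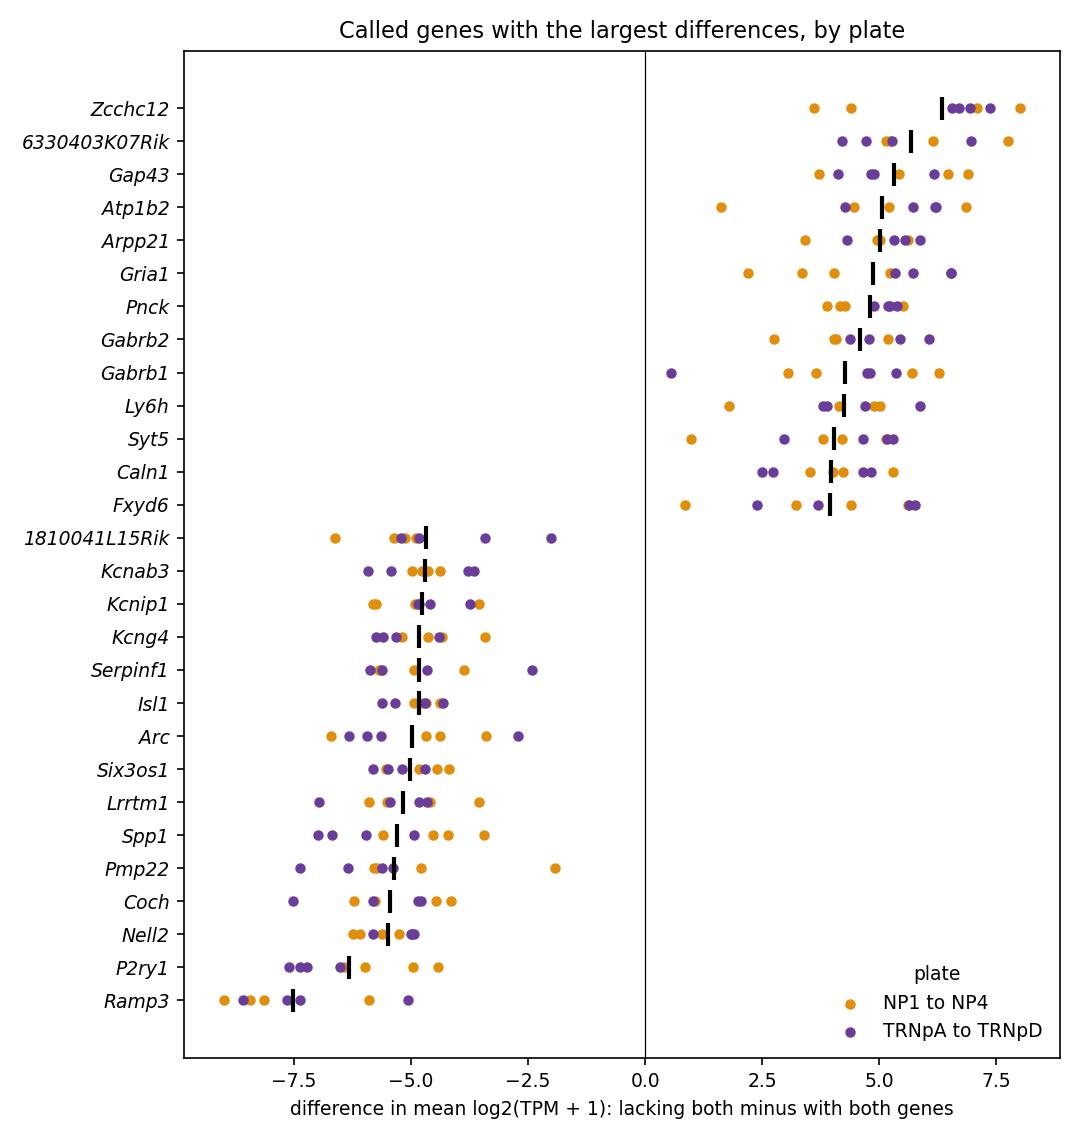
Difference in mean log2(TPM + 1), members minus nuclei with both genes (x axis), for 13 of the 15 highest and the 15 lowest called genes (y axis), with 1 point per plate (orange NP plates, purple TRNp plates) and a black bar at the mean. Zcchc12 (6.34) lies at the top and Ramp3 (-7.52) at the bottom. Every point of every gene lies on its own side of 0 because a call required it.

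Genes of TRN neurons that the rule did not use were mostly lower in members. Of 19 such genes, all passed the filter, 16 were lower, none was higher and 3 were not called, and their median difference was -3.86, against -0.13 over all tested genes. The list was set with earlier results of these data known, and the comparison nuclei were chosen by Pvalb and Six3, themselves TRN genes. These counts, and those per nucleus below, are therefore a description and no independent support. P2ry1, a receptor for ADP, was found in 9.14% of members and in 86.5% of nuclei with both genes (difference -6.32 ± 1.14). Isl1, a LIM homeodomain factor of the developing prethalamus, was found in 11.7% of members and in 80.98% of nuclei with both genes, with plate means from 0.00 over 0.66 to 2.05 in members and from 4.95 over 5.56 to 6.36 in nuclei with both genes. Spp1, which encodes osteopontin and marks part of the TRN, was found in 1.39% of members and in 52.8% of nuclei with both genes, and Coch, an extracellular matrix protein gene, in 18.6% and 78.9% in the same order. Pmp22, a membrane protein gene best known from myelin, had a difference of -5.37 ± 1.58. The 3 exceptions were Ptchd1 (-1.82, below 0 on 6 of 8 plates), the metalloprotease gene Ecel1 (1.20 ± 1.70) and Cacna1g, a T-type calcium channel gene (2.87 ± 1.70), the last 2 above 0 on 7 of 8 plates. Ecel1, like Spp1 a gene of a part of the TRN, was found in 43.2% of members and in 34.3% of nuclei with both genes.

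Counted per nucleus, members on NeuN-selected plates had a median of 5 of these 19 genes (range 1 to 11), nuclei with 1 of Pvalb and Six3 a median of 8 (2 to 16) and nuclei with both a median of 13 (6 to 18). At least 10 of the 19 were found in 4.05% of members, in 31.9% of nuclei with 1 of the genes and in 92.2% of nuclei with both. Members and nuclei with both genes thus overlapped only between 6 and 11 genes, while nuclei with 1 of the genes spread over nearly the whole range. On unselected plates the medians were 6, 8 and 12, and 2 of 17 members had 10 or more. Because nuclei with 1 gene and members share the nuclei with both genes as their comparison, their values are set side by side only: over the 19 genes the median difference was -2.04 for nuclei with 1 gene (11 plates) and -3.86 for members (8 plates).

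**Figure D2:**
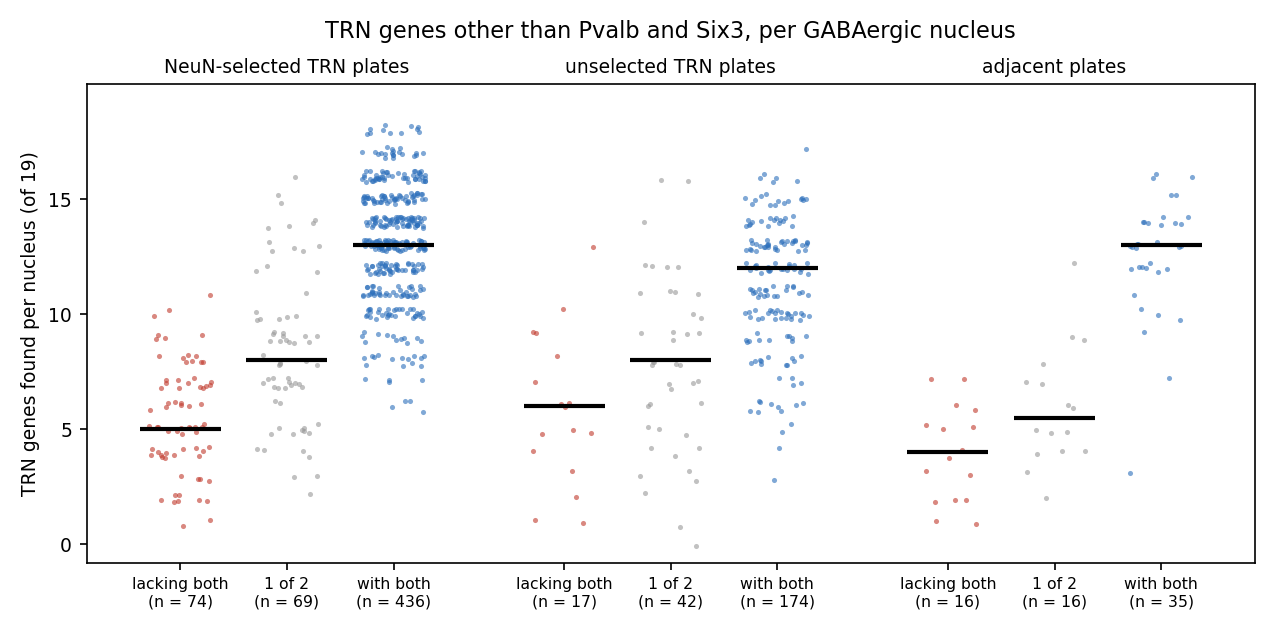
Number of 19 TRN genes found in each GABAergic nucleus (y axis), by plate kind and by whether Pvalb and Six3 were both absent (red), 1 was found (grey) or both were found (blue); black bars are medians and points are jittered slightly. On NeuN-selected plates the medians are 5, 8 and 13. The 19 genes were listed with earlier results of these data known.

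Among the 15 genes highest in members were several for receiving GABA and glutamate. Gabrb2 (4.59 ± 1.02) and Gabrb1 (4.27 ± 1.83) encode beta subunits of the GABA-A receptor. Gabrb2 was found in 90.2% of members and in 26.5% of nuclei with both genes. Its plate means ran from 3.83 over 5.78 to 7.64 in members and from 0.68 over 1.38 to 1.63 in nuclei with both genes, so they did not overlap, and mean levels were 153.8 and 15.1 TPM in the same order. Gria1, an AMPA receptor subunit gene, had a mean of 191.4 TPM in members and 6.83 TPM in nuclei with both genes (4.86 ± 1.55).

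Others of the 15 were of mixed kinds. Among them were the unannotated 6330403K07Rik (5.68), the growth cone protein gene Gap43 (5.31), the sodium pump subunit gene Atp1b2 (5.07), Arpp21, a cAMP-regulated phosphoprotein gene (5.01), and the kinase gene Pnck (4.81). After them came Ly6h (4.26), Syt5, the calneuron gene Caln1 (3.97) and Fxyd6 (3.94), a regulator of the sodium pump. Arpp21 was found in 71.3% of members and in 6.21% of nuclei with both genes, and Gap43 in 69.9% and 10.7% in the same order. All 15 had plate means that did not overlap between the kinds, which their choice by large differences on every plate favoured. Among called genes, 50.3% of the higher and 38.6% of the lower did so too. No such share was taken over all tested genes, so these shares are a description only.

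The 15 lowest genes were Ramp3, P2ry1, Coch, Pmp22, Spp1 and Isl1, given above, and 9 others. Nell2, a secreted glycoprotein gene, differed by -5.50 ± 0.52 and Lrrtm1, a synaptic adhesion gene, by -5.18 ± 1.02. Six3os1, a noncoding RNA that overlaps Six3 on the opposite strand at chr17:85600651-85618398 (GENCODE vM21, GRCm38), differed by -5.03 ± 0.57. No source used here says whether counting used strand, so its reads and those of Six3 cannot be told apart. Arc followed at -4.98, then Serpinf1, which encodes a secreted serpin (-4.84), and Kcng4, a modulatory potassium channel subunit gene found in 2.64% of members and in 67.6% of nuclei with both genes (-4.83). Kcnip1 and Kcnab3, accessory subunits of potassium channels, differed by -4.76 and -4.69, and 1810041L15Rik by -4.69. Lrrtm1 lies within Ctnna2 and Kcnab3 overlaps its antisense gene. Nell2 overlaps Tmem117 and Kcnip1 overlaps Kcnmb1, each on the opposite strand. Part of the reads of these genes is uncertain in the same way.

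GABA-A receptor genes did not move as a family. Of 11 tested, 5 were higher, 2 were lower and 4 were not called, with a median difference of 1.81. Among the higher genes, Gabrb2 lies at chr11:42419757-42629028, and a cluster on chromosome 5 holds Gabra2 (chr5:70957597-71095849), Gabra4 (chr5:71569749-71658308) and Gabrb1 (chr5:71658113-72149037), in GENCODE vM21 coordinates on GRCm38. Gabrg1 (1.58, above 0 on 6 of 8 plates) in the same cluster was not called. Gabra2 had means of 170.02 TPM in members and 6.58 TPM in nuclei with both genes. The lower genes were Gabrd (-2.49 ± 0.68), the delta subunit of receptors outside synapses, and Gabrg3 (-1.68 ± 0.99), a gamma subunit. Gabra3, the alpha subunit best known in TRN, was found in most nuclei of both kinds and was not called (-1.68 ± 1.62, below 0 on 7 of 8 plates). Gabra4 and Gabrb1 overlap at their starts on opposite strands, so reads from that stretch cannot be assigned to either.

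**Figure D3:**
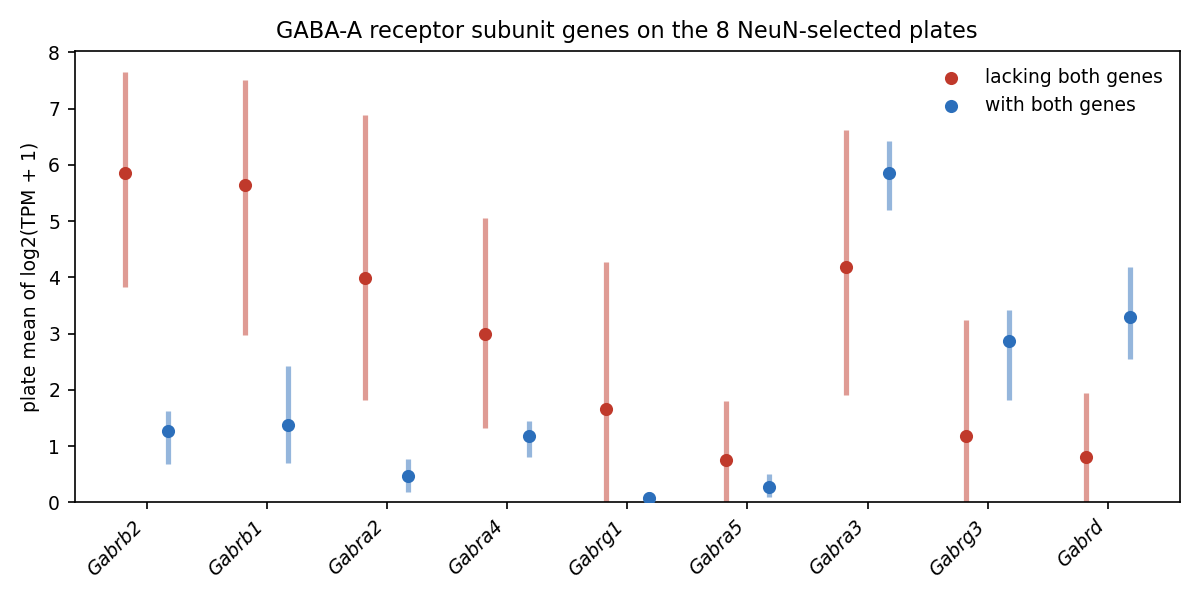
Mean log2(TPM + 1) of 9 GABA-A receptor subunit genes (y axis) in members (red, left of each pair) and in nuclei with both genes (blue, right); points are means over 8 plates and bars the lowest to highest plate mean. Gabrb2 (difference 4.59) and Gabrb1 (4.27) are separated on all plates, and Gabrd (-2.49) lies the other way.

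Among genes for handling GABA, Abat, which breaks it down, differed by -1.51 ± 1.27 and the vesicular GABA transporter Slc32a1 by -0.79 ± 1.01, neither below 0 on all plates.

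Glutamate receptor genes split by subunit. Among 14 ionotropic subunits tested, 2 were higher (Gria1 and the kainate receptor gene Grik4, 2.21 ± 1.05) and 5 were lower, with a median of -0.22. The lower ones were Grin2c, an NMDA receptor subunit gene (-3.26 ± 0.93), Grik3 (-2.70), Grik2 and Gria3 (each -1.66) and Gria4 (-1.27). Gria2 and Grin1 were found in nearly every nucleus of both kinds and differed by 0.63 and 0.52. Among metabotropic receptor genes, Grm5 (3.17 ± 0.85) and Grm2 (1.67 ± 0.76) were higher and Grm3 (-4.42 ± 1.43) was lower. Grm5, which acts through phospholipase C, had means of 170.7 TPM in members and 34.7 TPM in nuclei with both genes. Grm3 is a TRN gene of the list above and was found in 33.6% of members and in 85.97% of nuclei with both genes.

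Some channel genes linked to bursting and fast firing were lower, and the others were not called. In the list of T-type, SK and HCN channels, 3 of 9 tested genes were lower, 6 were not called and none was higher. The median of this list was 0.14, so it was not lower as a family. The lower genes were Kcnn2, the SK channel that follows T-type calcium entry in TRN dendrites (-4.42 ± 1.15), and the T-type genes Cacna1h (-2.47 ± 1.21) and Cacna1i (-2.12 ± 1.18). Kcnn2 had means of 98.8 TPM in members and 416.9 TPM in nuclei with both genes. Cacna1g, the third T-type gene and the form best known in thalamic relay cells, stood the other way, found in 75.2% of members and in 24.2% of nuclei with both genes, with plate means from 1.35 over 4.69 to 5.56 in members and from 0.51 over 1.30 to 1.71 in nuclei with both genes. It fell short of a call because the difference was below 0 on 1 plate. Of 10 Kv1 and Kv3 genes tested, 5 were lower and none was higher (median -1.38), led by Kcnab3, Kcna1 (-2.91 ± 0.86) and Kcnc1 (-2.35 ± 0.68), a Kv3 subunit of fast-spiking cells.

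Sodium and high-voltage calcium channel genes went in both directions. Of 9 sodium channel genes, 4 were lower (Scn4b at -3.47 ± 0.52, Scn3a at -2.58, Scn8a at -1.53 and Scn1a at -1.34) and the accessory subunits Scn3b (1.97 ± 1.55) and Scn2b (1.40 ± 0.68) were higher. Of 12 high-voltage calcium channel genes, 3 were higher and 2 lower, with a median of 0.38. Cacna1e, the R-type channel, differed by 3.49 ± 0.38, with plate means from 3.93 over 4.36 to 4.75 in members and from 0.57 over 0.83 to 1.41 in nuclei with both genes. Cacnb3 (1.76) and Cacna1b (1.33) were the other higher genes, and the accessory genes Cacna2d3 (-3.48 ± 1.13) and Cacna2d2 (-1.49) were lower.

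**Figure D4:**
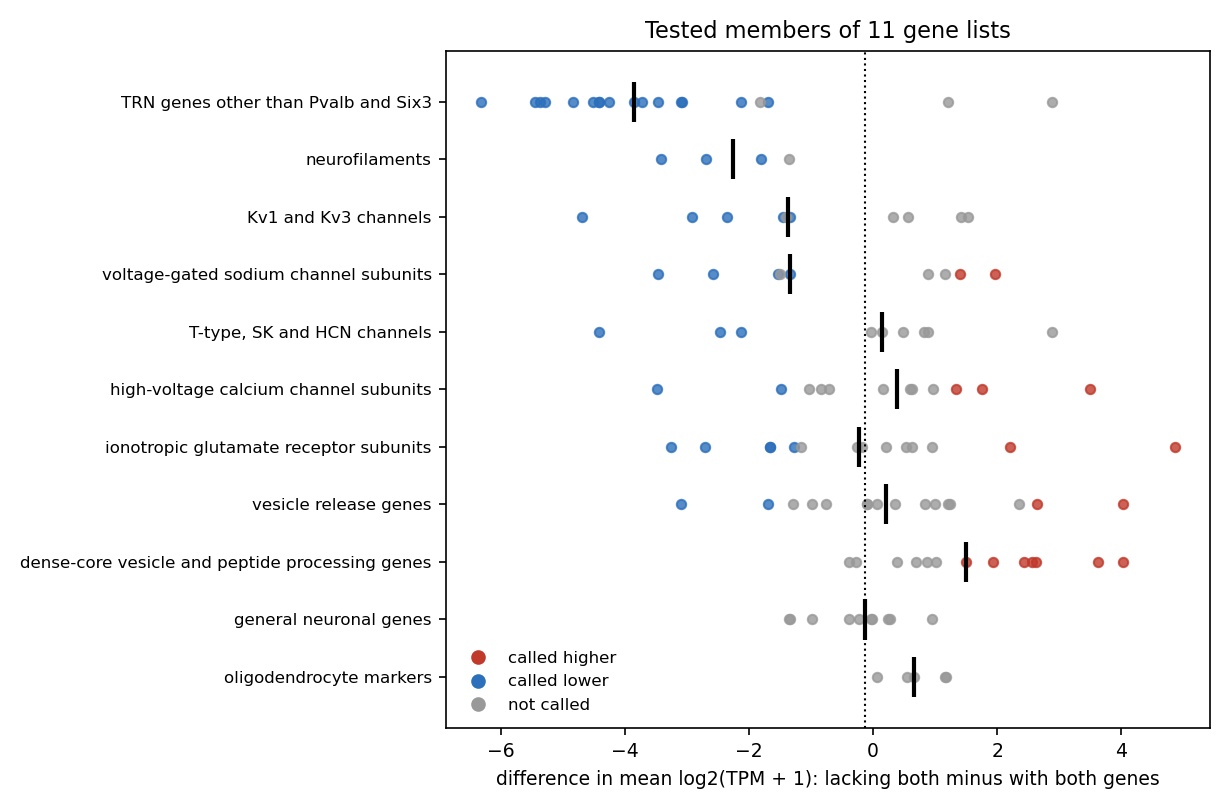
Difference in mean log2(TPM + 1), members minus nuclei with both genes (x axis), for the tested genes of 11 lists (y axis), coloured by call, with a black bar at each list's median and a dotted line at the median of all tested genes (-0.13). The lists are TRN, neurofilament, ion channel (4 lists), ionotropic glutamate receptor, vesicle (2 lists), general neuronal and oligodendrocyte genes; GABA-A receptor genes (median 1.81) and other lists are not drawn. Of the lists drawn, TRN genes lie farthest left (median -3.86) and dense-core vesicle genes (1.49) farthest right.

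Genes of dense-core vesicles and peptide processing were often higher on NeuN-selected plates. Of 13 tested, 7 were higher and none was lower, with a median of 1.49. Beside Syt5 and Tmem130, which the label of these nuclei uses and which this count and median include, these were Scg2 (2.62 ± 1.21), Resp18 (2.55), Scg5 (2.44), the convertase gene Pcsk2 (1.93) and the amidating enzyme gene Pam (1.49). In members of unselected plates the median over the list was -0.39, against -0.64 over all tested genes. In members of adjacent plates it was -0.07, against -0.26. Resp18, a gene of endocrine vesicles, had means of 1768 TPM in members and 480.7 TPM in nuclei with both genes. Of 16 genes of vesicle release, 2 were higher and 2 lower. Complexins, which clamp and prime fusion, split: Cplx1 was lower (-3.10 ± 1.27, 300 TPM in members and 644.1 TPM in nuclei with both genes) and Cplx2 higher (2.63 ± 1.10, 69.6 and 11.9 TPM). Syt2, the calcium sensor of fast release, was lower (-1.69 ± 0.84).

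Neuropeptide genes went in both directions. Of 18 in the list, 6 passed the filter, of which 1 was higher and 3 were lower. Penk, which encodes the enkephalin precursor, was found in 32.3% of members and in 1.18% of nuclei with both genes, with means of 1319 and 18.1 TPM in the same order (3.49 ± 1.98). Its plate means in members ran from 0.80 over 3.53 to 7.49. The lower genes were Npy (-4.34 ± 1.38, found in 9.95% of members and in 56.8% of nuclei with both genes), Trh (-3.86 ± 0.75) and Sst (-3.73 ± 1.55). Sst was found in 11 of 74 members and in 56.2% of nuclei with both genes.

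Structural genes of large fast-firing neurons were in part lower. Of 4 neurofilament genes, 3 were lower: Nefh (-3.42 ± 0.86), Nefm (-2.69 ± 1.20) and Ina (-1.81 ± 1.33). Of 7 tested genes of perineuronal nets, the matrix around many parvalbumin neurons, Bcan (-4.38 ± 1.25) and Hapln4 (-2.61 ± 1.05) were lower and Ptprz1 (2.12 ± 1.07) was higher. Nuclear-encoded respiratory chain genes gave no call among 19 tested (median -0.56). Among ribosomal protein genes 1 of 18 was higher (Rplp0, 1.29), against 3.14% of all tested genes. General neuronal genes gave no call among 10 tested (median -0.13), with Nefl and Map2 each at -1.35 as the farthest. Among 6 tested nuclear noncoding RNAs none was called, and Malat1 differed by -0.82 ± 0.26, below 0 on all plates, with means of 5398 TPM in members and 9790 TPM in nuclei with both genes.

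Immediate early genes, which neurons switch on with activity, parted. Of 5 tested, Egr1 (2.64 ± 1.62) and Fos (1.77 ± 1.41) were higher, and Arc (-4.98 ± 1.42) and Dusp1 (-1.82 ± 1.08) were lower. Arc was found in 31.9% of members and in 89.4% of nuclei with both genes, while Egr1 was found in 41.5% and 9.11% in the same order. Of 8 tested receptors for monoamines, acetylcholine and other modulators, the serotonin receptor gene Htr2c (2.10 ± 0.99) was higher and the muscarinic receptor gene Chrm2 (-2.44 ± 1.30) lower. Among 21 axon guidance genes, Dcc (1.51 ± 0.81) was higher and Sema3e (-2.02 ± 0.83), Epha7 (-1.51) and Plxna4 (-1.25) were lower. Over all tested genes 3.14% were higher and 6.26% lower, so the calls among receptor and guidance genes describe single genes and not families. Among 18 imprinted genes, Impact (1.45), Nap1l5 (1.36) and Zdbf2 (1.27) were higher, and Ndn (2.93 ± 2.14) and Magel2 (2.23 ± 1.54) were above 0 on 7 of 8 plates.

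Transcription factors of midbrain-derived interneurons were found in part of the members and in few nuclei with both genes. Sox14 was found in 17 of 91 members (18.7%, interval 11.3% to 28.2%) and in 2 of 610 nuclei with both genes, Gata3 in 17 and 3, Tal1 in 11 and 2, Otx2 in 10 and 3, and Gata2 in 8 and 2. At least 1 of the 5 was found in 33 of 91 members and in 10 of 610 nuclei with both genes, and at least 2 in 16 and 2. Only Sox14 (1.43 ± 1.00, higher) and Gata3 (1.26 ± 0.97, above 0 on 7 of 8 plates) passed the filter. The 33 members came from all 8 NeuN-selected plates, 1 to 7 per plate. None came from unselected plates, where the exact interval for 0 of 17 members reaches 19.5%.

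Several of these factors met in the same nuclei. Sox14 and Gata3 were found together in 11 members, Sox14 and Tal1 in 8, and Gata2 and Gata3 in 6 of the 8 with Gata2. Otx2, found in 10 members, and Sox14, found in 17, were found together in 1. Tcf7l2, a Wnt effector best known from thalamic glutamatergic neurons, was found in 31 of 91 members and in 36 of 610 nuclei with both genes (3.06 ± 0.76, higher), and 16 of the 17 members with Sox14 had it. Among the 33 members with at least 1 of the 5 factors, Tcf7l2 was found in 23, Penk in 14 and Calb2, a calcium-binding protein gene, in 14. Since all 33 came from NeuN-selected plates, they were set against the 41 members of those plates with none of the 5, among which Tcf7l2 was found in 7, Penk in 10 and Calb2 in 3 nuclei. Meis2 and Nr2f2, factors of the TRN list, went the other way, each found in 27.3% of the 33 and in 58.5% of the 41. The 33 had a median of 5014 detected genes and the 41 a median of 4825, and the part of that gap in these shares was not tested. Zcchc12 was found in 31 of the 33 and in 37 of the 41.

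Some striatal and thalamic marker genes were more frequent in members than in nuclei with both genes, and others were not. Of the striatal list, 7 of 12 passed the filter, and Penk, Bcl11a (1.73) and Rgs9 (1.52) were higher. At least 4 of the 12 were found in 18.9% of members and in 0.92% of nuclei with both genes on NeuN-selected plates, with summed levels from 0 over a median of 197.6 to 18867 TPM in members and from 0 over 13 to 6286 TPM in nuclei with both genes. Rgs9, a regulator of G protein signalling, was found in 33.8% of members and in 5.28% of nuclei with both genes there, and Drd1a, the D1 dopamine receptor gene, in 21.6% and 0.23% in the same order. Other striatal genes were at or near 0 in TRN members. Ppp1r1b was found in 1 of 91 members, against 24 of 610 nuclei with both genes. Adora2a was found in no member, for which the exact interval reaches 3.97%. The part of members with these markers in the differences above was not tested. The pallidal list had 1 tested gene, Kcng4, with Lhx6 found in 1 and Npas1 in 2 of 74 members. Of the zona incerta and hypothalamic list, 4 were tested and Calb2 (1.23 ± 0.85) was higher, while Dlx5 (-0.95) was not called. Of genes of interneurons from the medial ganglionic eminence, Nxph1 (-4.26 ± 0.85) and Erbb4 (-1.21) were lower, and of those from the caudal eminence, Reln (1.90 ± 1.19) was higher and Prox1 (-1.87 ± 0.53) lower. In the thalamic glutamatergic list, Tcf7l2 and Calb2 were higher and Cplx1 was lower among 5 tested. At least 4 of its 9 genes were found in 18.9% of members and in 3.90% of nuclei with both genes on NeuN-selected plates. By other measures the list went the other way there. At least 1 gene was found in 90.5% of members and in 98.9% of nuclei with both genes. Summed levels had medians of 629.6 and 704.8 TPM in the same order. Of 13 tested forebrain patterning factors, Tshz2 (1.13) was higher and Isl1, Nr2f2 (-4.25) and Meis2 (-3.10) were lower.

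Glial genes were found in some nuclei of both kinds. At least 4 of 8 oligodendrocyte markers were found in 21.6% of members and in 12.2% of nuclei with both genes on NeuN-selected plates, with summed levels from 0 over a median of 224.1 to 23579 TPM in members and from 0 over 98.7 to 41149 TPM in nuclei with both genes. None of the 5 tested oligodendrocyte genes was called, with Cnp (1.17) and Mbp (1.15) the farthest. Without the nuclei that had 4 or more of these markers, a choice made after seeing the data, 3.70% of tested genes were higher and 6.06% lower on the 7 plates that still qualified, and these held 75.5% of the lower genes above. Of the astrocyte list, Slc1a2 (-1.21 ± 1.03) was lower and the only gene tested. Whether its RNA came from the neurons or from glia was not tested. No gene of the oligodendrocyte precursor or endothelial lists passed the filter, and Cx3cr1 (-0.08) was the only microglial gene that did.

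Members of unselected plates held the genes of the label less often in these counts, and the difference was not tested. Zcchc12 was found in 7 of 17 (41.2%, interval 18.4% to 67.1%), against 68 of 74 members on NeuN-selected plates, and Syt5 in 2 of 17. Rbfox3, the gene of NeuN, was found in 3 of these 17 members (17.6%) and in 62.1% of nuclei with both genes on the same plates. Of the 17, 4 had at least 4 of 8 oligodendrocyte markers, with sums up to 98159 TPM. Sst, by contrast, was found in 9 of the 17 members (52.9%), against 68.4% of nuclei with both genes. Each of these members was set against the mean of nuclei with both genes on its plate. Of the 300 genes higher on NeuN-selected plates, 56.3% were above 0 there, against 21.2% of all tested genes. Of the lower genes, 94.3% were below 0, against 78.7% of all tested genes. The median over all tested genes was -0.64, and members there had fewer detected genes, as given above. Without the 4 nuclei with oligodendrocyte markers, the share of higher genes above 0 was 65.3%, against 25.9% of all tested genes.

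On adjacent plates the same rule picked nuclei among which striatal genes were common. It found 16 of 67 GABAergic nuclei (23.9%, interval 14.3% to 35.9%), against 35 with both genes, with medians of 4264 and 4745 detected genes. Ppp1r1b was found in 8 of the 16, Rgs9 in 12, Penk in 9 with a mean of 4741 TPM, and Adora2a in 2. At least 4 of the 12 striatal markers were found in 12 of the 16, against 14 of 91 TRN members, and at least 8 in 7 of the 16, against 1 of 91. None of the 5 midbrain factors was found in them, and the exact interval for 0 of 16 reaches 20.6%. Of the 300 genes higher on NeuN-selected TRN plates, 75.7% were above 0 in adjacent members relative to nuclei with both genes on their plates, against 39.5% of all tested genes. Of the lower genes, 89.3% were below 0, against 60.4% of all tested genes.

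**Figure D5:**
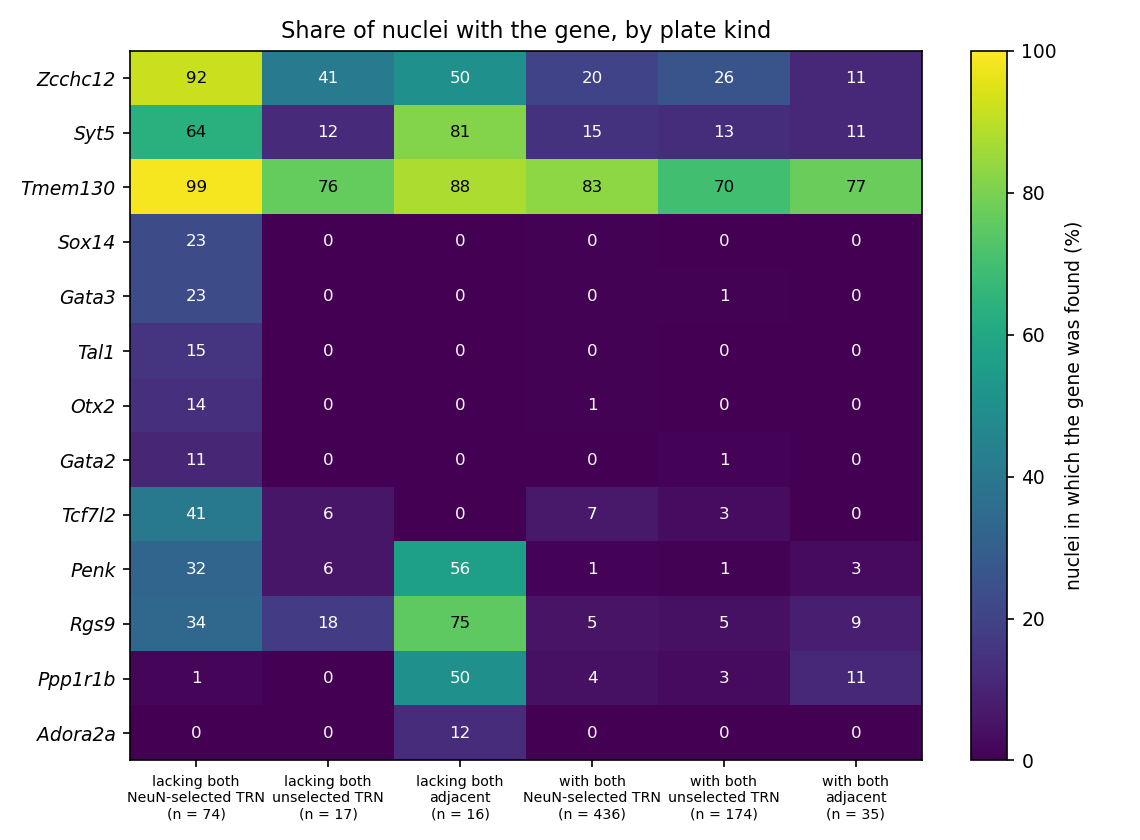
Share of nuclei in which a gene was found (cell colour and printed percent), for members (left 3 columns) and nuclei with both genes (right 3 columns) of NeuN-selected TRN, unselected TRN and adjacent plates. Midbrain factors appear in members of NeuN-selected TRN plates (Sox14 in 17 of 74), while Penk and Rgs9 appear in members of both NeuN-selected TRN and adjacent plates, and Ppp1r1b mainly in those of adjacent plates (8 of 16).

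In the Patch-seq samples, 3 of 81 GABAergic cells lacked both genes and 72 had both. Those 3 had 1427 to 3216 detected genes, against 1622 to 13164 in the 72, so they were not followed further.

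Taken over all tested genes, members varied among themselves about as much as nuclei with both genes did. The median within-plate SD of log2(TPM + 1) was 2.88 in members and 2.85 in nuclei with both genes. Such medians cannot tell whether members are of 1 kind, and some genes, given under other observations, spread more in members. Over the 4419 tested genes found in at least 50% of nuclei of either kind, the median correlation between nuclei of a plate was 0.27 among members (0.23 to 0.29 over plates), 0.27 among nuclei with both genes (0.24 to 0.29) and 0.22 between the kinds (0.20 to 0.23). These are correlations across genes, which are not independent replicates, and are given as a description. The largest correlation between any 2 of the 91 members was 0.37, so no pair looked like a repeated library.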

How the data were processed

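Single nuclei were sequenced by Smart-seq2, per the labels' protocols. The submitters' processing notes name RSEM, Bowtie, TopHat2 2.0.10, Seurat 2.2.0 and build mm10. The TRN table was deposited as natural log values of 1 plus scaled TPM, and the Patch-seq table was deposited as TPM. TPM was recovered here by exponentiating, subtracting 1 and rescaling each nucleus to 1000000 (the 236907 values under 2 TPM lay within 0.0021 steps of a multiple of 0.01). All 1687 and 95 columns were tied to samples by the labels, which gave the groups. Differences of mean log2(TPM + 1) were taken within plates (Python 3.11.15, pandas and numpy) and the procedure was tested on simulated data. TPM keeps no read counts, so depth is unknown and intervals cover counting error only. No doublet caller was run. The members, the gene lists and the rules were chosen with earlier results of these data known. Genes named are Zcchc12, Syt5 and Tmem130, the 15 called genes highest and the 15 lowest, and for each list those farthest from 0; others were named after their values were seen. Alternatives covered scaling, pseudocount, filters, plates, matching on detected genes and the comparison nuclei. Cortical, hippocampal and striatal samples were not used here. A few genes that the naming rule picks are not reported here.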

Additional observations from a re-analysis of the deposited data

Results flagged for a closer look

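Among 61 values checked over the 8 NeuN-selected plates, 4 had a plate that stood apart from the other 7 by Dixon's ratio, where chance gives about 1 in 20. Plate NP2 gave a difference of 2.07 for Tmem130, against 3.35 to 4.34 on the other plates. On plate NP1, the difference of Pmp22 was -1.92, against -7.38 to -4.79 on the others. The median over sodium channel genes was 0.46 on plate NP3 and -1.24 to -0.45 on the others. The median over perineuronal net genes was 0.0443 on plate NP1 and -1.28 to -0.74 on the others. NP1 and NP2 held 5 and 7 members.

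Kcnn1, an SK channel gene, was the single gene of the lists whose difference had opposite signs on all plates of each name set, at 0.37 on average on TRNp plates and -0.43 on NP plates. The difference between the sets was not tested.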

How the results depend on the processing

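No paired analysis was possible because the results come from no test and the replicate numbers only follow accession order. With 10 TPM as the pseudocount, 1.63% of tested genes were higher and 2.92% lower and the median over TRN genes was -2.44. As log2 ratios of mean TPM + 1, 1.71% were higher and that median was -3.37. On the 4 plates with at least 10 of each kind, which are the TRNp plates, 7.71% were higher and 10.9% lower, and on the 4 NP plates (added after seeing the data) 10.7% were lower; fewer plates must share a sign there. With plates pooled, and so no sign rule over plates, 5.53% were higher and 9.96% lower. With nuclei matched on detected genes, 3.17% were lower. Against nuclei with 1 of the genes, 0.715% were higher and 0.747% lower and the median was -1.48. On unselected plates alone (added, with no sign rule), 34.9% were lower and the median was -2.58. The cause of the other shifts was not tested. Leaving out each plate gave 3.26% to 4.05% higher genes, 6.47% to 7.10% lower genes, medians from -4.04 to -3.83 and shares of members from 10.6% to 11.6%. No difference of the 31 named genes changed sign under any of these settings on NeuN-selected plates, but 20 of them lost their call against nuclei with 1 of the genes. Coch (-4.41) and Spp1 (-4.03) lost it when nuclei were matched on detected genes, and Gabrb1 (2.25) as a log2 ratio of mean TPM + 1. Settings that only left out plates could not change a sign, because each call required 1 sign on all 8 plates. In nuclei that no call used, the higher genes Gap43 (-0.40), Arpp21 (-0.02) and Pnck (-0.01) were below 0 on unselected plates. Atp1b2 (-0.21) was below 0 on adjacent plates, and the other named genes kept their direction on each. Values without rescaling, the 10% filter or none, the 300 TPM limit and leaving out nuclei with Slc17a6 or glial genes kept counts within 1.5 times. NeuN-selected plates alone qualified, so restricting to them changed no gene result.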

Other observations

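Among genes tested, Penk had the largest spread between members within a plate, with an SD of 5.28 on the log2(TPM + 1) scale, against 1.00 in nuclei with both genes. Cpne7, which encodes a copine, had an SD of 4.64 in members and 2.69 in nuclei with both genes and was found in 51.1% and 18.9% of nuclei per plate on average. Tcf7l2 had 4.57 and 1.46, and Fxyd6 had 4.41 and 1.91, in the same order. These genes were picked after their values were seen.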
